A study of Mus musculus with 6 samples.

Results

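The genes described here are the profilins Pfn1 and Pfn2 and the 3 Ena/VASP genes Vasp, Enah and Evl, 5 of the 22180 genes tested. They were chosen by symbol, from array probe sets that carry exactly 1 gene symbol. Every member had 1 such probe set, so the value of a gene is that of its only probe set, and all 5 entered the test without a filter on low values.

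Profilins bind actin monomers and, through a separate surface, stretches of proline in other proteins, and so hand actin to the machines that build filaments. The Ena/VASP proteins are such machines. Their EVH1 domain docks on proline-rich ligands at focal adhesions and at the leading edge, their central proline-rich stretch takes up profilin with its actin, and their EVH2 domain holds the growing filament end and shields it from capping. In blood vessels, the family is known for its part in barrier function and in the filopodia of migrating endothelial cells. Profilin-1 is phosphorylated on a tyrosine downstream of VEGF receptor signalling.

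Cells were taken from mouse gliomas by magnetic sorting for CD105 (endoglin) and were then held in glioma-conditioned medium for 12 h. The labels call them tumor-associated endothelial cells. The Tie2-Cre group (mice 1, 3 and 4) carried Tie2-Cre, floxed Pfn1 (fl/fl) and the Y129F form, in which a phenylalanine takes the place of a tyrosine. The no Cre group (mice 6, 7 and 10) carried the same fl/fl and Y129F alleles without Cre, so the alleles were shared and only Cre was meant to differ. The sources used here do not give how Cre rearranges the locus, nor the strain and the age of the mice. The Tie2 promoter that drives Cre is active in endothelial cells and also in many blood cells. One array was run per mouse, and the values are log2 of intensities that the authors made by RMA.

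Some facts of the whole set touch every result. The log2 intensity of Xist was 5.36 to 6.06 in the Tie2-Cre mice and 11.16 to 11.44 in the no Cre mice, and the Y-linked genes Uty, Eif2s3y and Kdm5d were higher with Tie2-Cre (3 of 3), so the genotype and the sex pattern of the cells cannot be told apart. Of 8 endothelial markers, 7 lay below the median gene (7.12 log2), among them Emcn (4.27), Pecam1 (6.23) and Cdh5 (6.89), and Eng, the gene of the sorting antigen, lay at 11.91. Of the 8, Eng was the only marker above the median gene, and it was the 1 that changed (lower by 0.30, SE 0.064). The summed intensity of 8 pericyte and smooth muscle markers ran from 29967 to 35948 with Tie2-Cre and from 21196 to 22625 without Cre. Of the 8, 0 were lower and 5 were higher, with log2 changes of 1.45 (Rgs5), 0.92 (Myh11), 0.67 (Cspg4), 0.47 (Acta2) and 0.27 (Pdgfrb). The sum of 8 macrophage markers ran from 725 to 753 and from 913 to 973, with 2 of 8 lower (Cd68 and Csf1r), and the leukocyte marker Ptprc lay at 5.13 and 5.34, below the 25th percentile of genes (5.90). The sums of 6 neuron markers ran from 1899 to 2355 and from 1306 to 1334, with Tubb3 the 1 of 6 that was higher. Of 6 fibroblast markers 2 were higher and 1 lower, with sums from 13549 to 15828 and from 17198 to 17332. The log2 changes were 1.65 for Pdgfra (SE 0.13), 1.27 for Lum (SE 0.16) and -0.76 for Dcn (SE 0.10). Of 8 epithelial and mesothelial markers 0 were higher and 2 were lower, Upk3b (-1.36) and Krt19 (-0.42). Their sums ran from 1292 to 1405 and from 1981 to 2366 for all 8. The endothelial sums ran from 3879 to 3973 and from 4677 to 4858. Those of 6 T cell and platelet markers ran from 650 to 700 and from 598 to 635. Each sum weighs the brightest genes of its list most. Mean levels ran from 7.26 to 13.54 log2 for the pericyte and smooth muscle markers and from 6.87 to 12.83 for the fibroblast markers. The part of these markers in the results below was not tested. In such bulk samples, fewer cells of a type and less RNA per cell cannot be told apart.

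The series asks how phosphorylation of Pfn1 bears on gene expression, and the profilins are given first. Pfn1, the widely expressed profilin, had a log2 intensity of 12.41, 12.41 and 12.41 in Tie2-Cre mice 1, 3 and 4 and of 12.38, 12.34 and 12.39 in no Cre mice 6, 7 and 10. The groups did not overlap, but the gap between them was 0.012 log2. Without the log, the mean intensity was 5442 with Tie2-Cre and 5303 without Cre. The log2 change was 0.04 (SE 0.062), short of the threshold (limma, Benjamini-Hochberg adjusted p 0.776). Its 95% confidence interval spanned 0.930-fold to 1.13-fold. The SD within groups was only 0.018, and this SE is larger because limma draws a gene's variance toward that of all genes. With eBayes with trend and robust, the SE was 0.037 and the change did not pass either (limma adjusted p 0.608). The change was 0.08 (SE 0.060) when the arrays were quantile-normalized again and 0.02 (SE 0.074) without no Cre mouse 7, and it did not pass in either (limma adjusted p 0.444 and 0.899). Pfn1 was among the brightest genes, at percentile 99.2 of the mean level, and among the least variable, at percentile 0.365 of the SD within groups. Which bases of Pfn1 the probe set covers was not examined. Its value is therefore not read as a check of the Y129F allele or of its recombination.

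Pfn2, the profilin best known from neurons, showed log2 intensities of 9.40, 9.41 and 9.46 with Tie2-Cre (mice 1, 3 and 4) and of 9.27, 9.37 and 9.24 without Cre (mice 6, 7 and 10). All Tie2-Cre mice lay above all no Cre mice, with mouse 7 only 0.027 below the lowest of them. The log2 change was 0.12 (SE 0.068, limma adjusted p 0.316) and did not pass, with a 95% interval from 0.978-fold to 1.21-fold. The remaining profilin genes on the array, the testis-associated Pfn3 and Pfn4, lay at a mean of 6.52 and 6.12 log2, below the median gene. Their log2 changes of 0.03 (SE 0.11) and -0.15 (SE 0.068) did not pass either (limma adjusted p 0.900 and 0.205). The change of Pfn3 became -0.03 when Tie2-Cre mouse 4 or no Cre mouse 10 was left out. Of the 4 profilin genes, 0 passed the limma test, where 12.0% of all genes did, and so few genes cannot be set apart from that share. The lowest unadjusted p of the 4 (limma) was 0.052, for Pfn4.

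**Figure D1:**
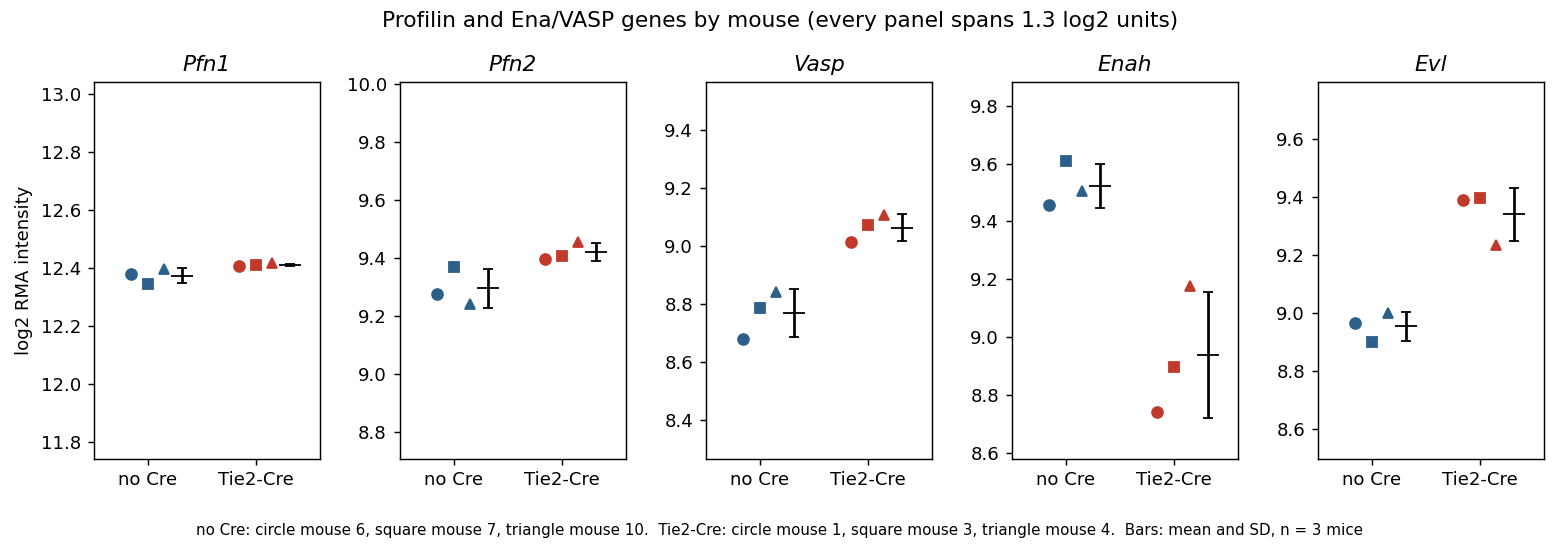
Log2 RMA intensity (vertical axis) of the 5 genes in each no Cre mouse (blue) and Tie2-Cre mouse (red), with the mean and SD of 3 mice as black bars; every panel spans 1.3 log2 units. The Pfn1 points lie almost level, Vasp and Evl are higher with Tie2-Cre, and Enah is lower with the widest spread, from 8.74 to 9.18.

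The Ena/VASP genes did not move as a family: Enah was lower with Tie2-Cre, and Evl and Vasp were higher. In all, 3 of the 5 members passed the threshold, where 12.0% of all genes did. For the higher direction the members' count was 2 of 5 against 4.78% of genes, and for the lower direction 1 of 5 against 7.17%. In 5 of 5 members the groups of 3 arrays lay fully apart, as in 31.0% of all genes. The members and the comparison were chosen with earlier results of these arrays known, so these shares are a description. For each of the 5 genes an exact permutation test (two-sided) gave p = 0.1, and no smaller p is possible with 3 mice in each group.

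Enah encodes Mena, the member of the family that is prominent in neurons and in invasive tumor cells. Its log2 intensity was 8.74, 8.90 and 9.18 in Tie2-Cre mice 1, 3 and 4 and 9.46, 9.61 and 9.51 in no Cre mice 6, 7 and 10. The highest Tie2-Cre mouse, mouse 4, stayed 0.28 below the lowest no Cre mouse. The mean intensity without the log was 495 with Tie2-Cre and 737 without Cre. The log2 change was -0.58 (SE 0.11, limma adjusted p 0.0134), so the intensity fell by 33.3% with Tie2-Cre. It was at percentile 95.6 of the absolute changes of all genes. The spread was uneven: the SD was 0.22 with Tie2-Cre and 0.076 without Cre (n = 3 mice each). Without Tie2-Cre mouse 4 the change was -0.70 (adjusted p 0.00369), and without no Cre mouse 7 it was -0.54 and no longer passed (adjusted p 0.0547, the highest over all 14 alternatives; the lowest was 0.0021).

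Evl, the Ena/VASP-like protein abundant in blood cells, went the opposite way. Its log2 intensity was 9.39, 9.40 and 9.23 in Tie2-Cre mice 1, 3 and 4 and 8.963, 8.899 and 8.998 in no Cre mice 6, 7 and 10. The groups lay 0.24 apart, with mouse 4 again the Tie2-Cre mouse nearest to the no Cre group. The log2 change was 0.39 (SE 0.074, limma adjusted p 0.0134), or 1.31-fold higher. Without no Cre mouse 7 the call was lost (0.36, adjusted p 0.0560, within 0.0024 to 0.0560 over the alternatives). Of the 8 macrophage markers on the same arrays, Cd68 was lower by 0.99 and Csf1r by 0.42 (limma adjusted p 0.0003 and 0.0059), and the other 6, Ptprc among them (-0.21, adjusted p 0.242), did not pass. Their part in the change of Evl was not tested.

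Vasp encodes the founding member, known as a substrate of cyclic nucleotide-dependent kinases in platelets and vessel walls. Its log2 intensity was 9.01, 9.07 and 9.11 in Tie2-Cre mice 1, 3 and 4 and 8.68, 8.79 and 8.84 in no Cre mice 6, 7 and 10. The groups lay 0.17 apart. The log2 change of 0.29 (SE 0.072, limma adjusted p 0.0350), or 1.23-fold, passed the threshold. This call had the least margin of the 3: it was lost when any 1 mouse was left out (adjusted p 0.0610, 0.0909 and 0.0893 without Tie2-Cre mice 1, 3 and 4, and 0.122, 0.0931 and 0.0581 without no Cre mice 6, 7 and 10). It was also lost when all 41345 probe sets entered the fit (adjusted p 0.0844). Its size ran from 0.25 to 0.33 with a mouse left out. Of 6 T cell and platelet markers, 0 passed and 2 had an unadjusted p under 0.05 (limma), with 0 of 6 lower at that level. The differences of the 3 platelet genes were 0.46 for Pf4, 0.0003 for Itga2b and 0.05 for Gp9 (limma adjusted p 0.102, 0.999 and 0.839).

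**Figure D2:**
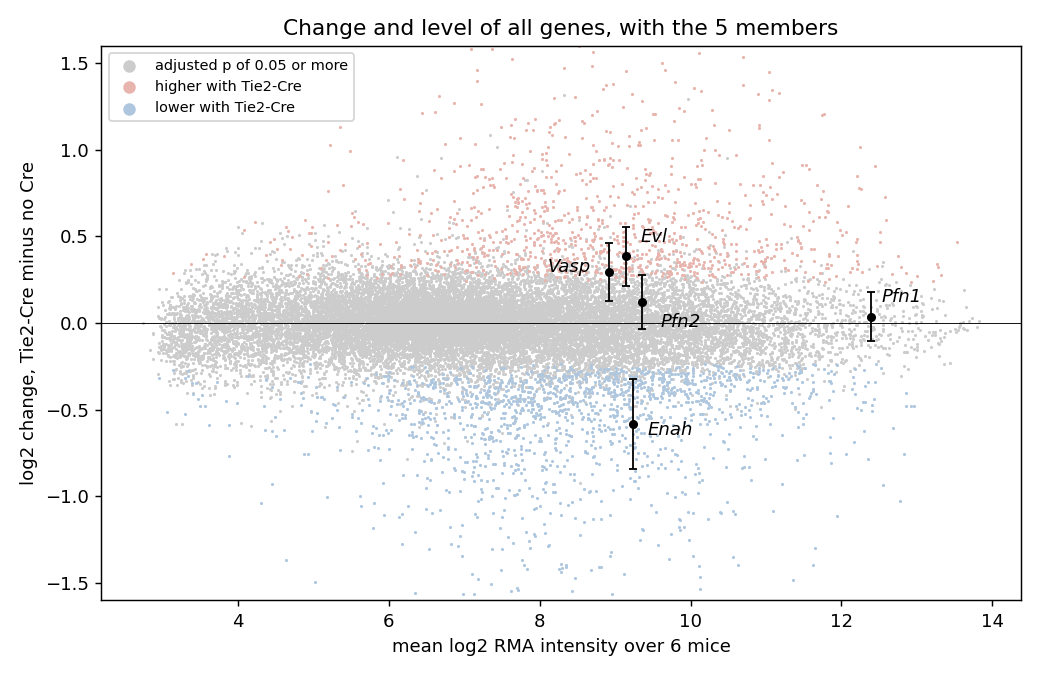
Log2 change, Tie2-Cre minus no Cre (vertical axis), against the mean log2 RMA intensity over 6 mice (horizontal axis) for all genes, with the 5 members in black and their 95% confidence intervals; 85 genes beyond 1.6 log2 are outside the plot. Pfn2, Vasp, Enah and Evl have similar mean levels on this scale, while only the intervals of Vasp, Enah and Evl lie clear of 0.

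The starts of the 3 genes that passed the test are shown for their base composition, which differed widely among them. Each line holds the 250 bases before a transcript start, 5′ to 3′ on the gene's strand, from RefSeq's promoter table for GRCm38.p6. Capitals mark matches to GGGCGG, the core bound by Sp1, on either strand (CCGCCC on the opposite strand).
Enah, chr1:182019981-182020230, minus strand: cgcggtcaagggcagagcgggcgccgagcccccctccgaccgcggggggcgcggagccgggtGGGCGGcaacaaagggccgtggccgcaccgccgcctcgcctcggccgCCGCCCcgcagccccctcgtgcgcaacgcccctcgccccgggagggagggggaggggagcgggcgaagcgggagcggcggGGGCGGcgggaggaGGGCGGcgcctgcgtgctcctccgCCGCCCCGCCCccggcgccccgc
Evl, chr12:108554470-108554719, plus strand: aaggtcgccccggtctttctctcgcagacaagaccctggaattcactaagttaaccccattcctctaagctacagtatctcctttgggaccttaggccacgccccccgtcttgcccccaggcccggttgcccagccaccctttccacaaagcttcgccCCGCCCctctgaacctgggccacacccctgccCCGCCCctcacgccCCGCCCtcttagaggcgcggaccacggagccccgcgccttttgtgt
Vasp, chr7:19271855-19272104, minus strand: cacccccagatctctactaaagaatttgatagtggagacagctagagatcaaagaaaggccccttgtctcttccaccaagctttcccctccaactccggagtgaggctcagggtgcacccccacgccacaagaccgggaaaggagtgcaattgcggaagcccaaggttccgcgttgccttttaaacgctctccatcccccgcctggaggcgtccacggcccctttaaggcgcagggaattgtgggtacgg

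The Enah window held 84.8% G and C, at percentile 99.9 of the 32851 windows of that length, and 42 CpG sites. It had 6 matches to GGGCGG, of which 1 pair overlapped. The Evl window held 64% G and C, 16 CpG sites and 3 matches, and the Vasp window 57.2%, 12 CpG sites and 0 matches. At least 1 match to GGGCGG was present in 32.7% of all windows, whose median was 52.4% G and C and 6 CpG sites. RefSeq lists a second start of Evl (chr12:108605516-108605765 before it, plus strand) with 49.2% G and C, 2 CpG sites and 0 matches. The arrays do not say which start was used. Among the profilins, the Pfn1 window held 54.4% G and C with 2 matches and the Pfn2 window 78% with 1 match.

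Further motifs were searched on both strands of these 6 windows, and no match overlapped a match of another motif. The core of the HIF site (ACGTG or GCGTG), found in 38.6% of all windows, had 1 match for Enah, 2 and 0 in the first and second Evl windows, 1 for Vasp, 1 for Pfn1 and 5 for Pfn2. Matches of this core that overlapped each other were counted separately, as on the opposite strands of 1 CACGTG in Pfn2. The TEAD core GGAATG, found in 12.6%, had 1 match in each Evl window and 1 for Pfn1, and 0 in the others. The CArG box bound by SRF, found in 1.47%, had 0 matches in all 6 windows. A match is only a stretch of letters, and a window without one says nothing of the factor.

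Unequal change within the families was read from the difference of log2 intensities on the same array. Levels of different probe sets are not compared by it, only how their difference moved between the groups. Evl minus Enah was 0.64, 0.50 and 0.06 in Tie2-Cre mice 1, 3 and 4 and -0.50, -0.71 and -0.51 in no Cre mice 6, 7 and 10. All Tie2-Cre mice lay above all no Cre mice, and the difference moved by 0.97 log2, with SDs of 0.31 and 0.12 (n = 3 mice each). Vasp minus Enah moved by 0.88, from -0.75 ± 0.082 (SD, n = 3 mice) without Cre to 0.13 ± 0.18 (SD, n = 3 mice) with Tie2-Cre, again without overlap. Evl minus Vasp moved by 0.09 and Pfn2 minus Pfn1 by 0.09, and in both the groups overlapped. With a mouse left out, these moves ran from 0.04 (without Tie2-Cre mouse 1) to 0.16 (without Tie2-Cre mouse 4) for Evl minus Vasp and from 0.05 (without no Cre mouse 10) to 0.14 (without no Cre mouse 7) for Pfn2 minus Pfn1. In exact permutation tests (two-sided) over these 4 differences, those with Enah gave p = 0.1 (adjusted 0.2) and the other 2 gave p = 0.3 (adjusted 0.3), where 0.1 is the smallest p possible. Evl and Vasp each lay fully higher with Tie2-Cre, and Enah fully lower. That fixed in advance the separation of both differences with Enah, and so their p, which add no further support. Mouse 4 was the Tie2-Cre mouse closest to the no Cre group in each difference that involved Enah. With a mouse left out, the move of Evl minus Enah ran from 0.85 to 1.14.

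**Figure D3:**
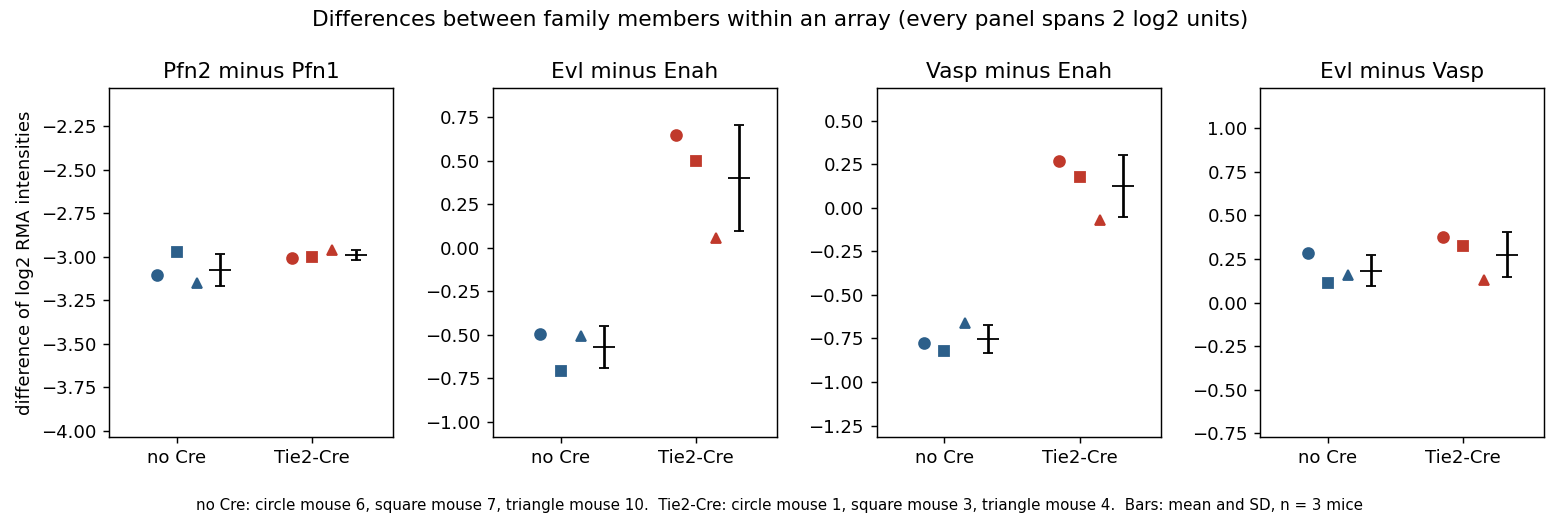
Difference of the log2 RMA intensities of 2 family members on the same array (vertical axis) in each no Cre mouse (blue) and Tie2-Cre mouse (red), with the mean and SD of 3 mice; every panel spans 2 log2 units. The differences that involve Enah separate the groups, from -0.57 to 0.40 for the means of Evl minus Enah, while Pfn2 minus Pfn1 and Evl minus Vasp overlap. The separation follows from the single genes, with Evl and Vasp fully higher and Enah fully lower with Tie2-Cre.

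The genes whose course over the 6 arrays lay nearest to that of each member were found by the root mean square difference of log2 values, each gene centred on its own mean. For Enah they were Vegfa, a growth factor of blood vessels (0.0448 log2), Ralgps2 (0.0514) and Cmah (0.0515). For Evl they were Frmd6 (0.0289), the fatty acid transporter Slc27a1 (0.0295) and Trib2 (0.0296), and for Vasp the semaphorin receptor Plxna4 (0.0202), Adprhl2 (0.0237) and Ikzf5 (0.0249). Around Pfn1 lay Aldh18a1 (0.0107), Nosip (0.0109) and Robo4 (0.0122), and around Pfn2 lay Usp4 (0.0183), Armc7 (0.0186) and Atcay (0.0187). The measure of likeness fixes the direction of these genes, so their changes are not given.

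Partners of the 2 families moved both ways as well. Of 75 measured partner genes in the lists that follow, 15 were higher with Tie2-Cre, 8 were lower and 52 were not past the threshold. Their median change was 0.02, beside -0.0042 over all genes. That is 30.7% past the threshold, beside 12.0% of all genes. The 2 shares are not matched for level. The list medians ran from 8.41 to 11.47 log2 with Tie2-Cre, above the median gene at 7.12. The lists were drawn up with earlier results known. When a mouse was left out, 10 of the 23 calls held in each case and 13 were lost in at least 1.

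The ligands of the EVH1 domain, which place Ena/VASP proteins in the cell, divided evenly. Among 14 measured, 3 rose, 3 fell and 8 did neither by this test, with a median change of -0.01. Past the threshold were 42.9%, beside 12.0% of all genes. The lower ones were Raph1, Apbb1ip and Zyx. Raph1 (lamellipodin), which recruits Ena/VASP to the leading edge, lay at 10.87, 10.88 and 10.52 log2 with Tie2-Cre and at 11.33, 11.39 and 11.31 without Cre, a change of -0.58 (SE 0.10, limma adjusted p 0.0095). Apbb1ip (RIAM), its relative that binds Rap1, lay at 9.34, 9.26 and 9.10 and at 9.78, 9.92 and 9.95, a change of -0.64 (SE 0.087, adjusted p 0.0026). In both genes mouse 4 was the lowest of all mice. Zyxin (Zyx), found at focal adhesions, was lower by 0.50 (SE 0.085). Its relative Lpp, prominent in smooth muscle, was higher by 0.68 (SE 0.086, adjusted p 0.0021), at 11.50, 11.51 and 11.75 against 10.94, 10.86 and 10.93. With the mean of its probe sets the change of Lpp was 0.34 (limma adjusted p 0.0244). Vinculin (Vcl), the adhesion protein that links talin to actin, rose by 0.76 (SE 0.16), with mouse 4 highest at 12.54, but leaving out no Cre mouse 7 or 10 ended its call (adjusted p 0.0573 and 0.0703). The cadherin Fat1 rose by 0.29 (SE 0.066), a call lost when any 1 mouse was left out (adjusted p 0.0578 to 0.0966). The brightest of those not past were the WAVE complex subunit Abi1 (-0.02), the actin-bundling palladin Palld (0.08) and the Cdc42 exchange factor Dnmbp (-0.01), with SEs of 0.062, 0.10 and 0.097. On the same arrays the pericyte and smooth muscle markers summed to at least 29967 with Tie2-Cre and at most 22625 without Cre, and their part in these changes was not tested.

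Other proteins that bind profilin through proline stretches, mostly formins and WASP or WAVE proteins, numbered 21. Of these, 4 were higher, 3 lower and 14 not past (33.3% past, beside 12.0% of all genes), with a median change of 0.05. The formin Diaph3 was lower by 0.85 (SE 0.083), at 7.64, 7.52 and 7.67 log2 with Tie2-Cre against 8.57, 8.35 and 8.45. The WAVE genes parted: Wasf1 changed by -0.54 (SE 0.098) and Wasf3 by -0.62 (SE 0.13), while Wasf2, the WAVE gene expressed outside the brain, rose by 0.29 (SE 0.069). Higher were also the formin Fhod1 (0.38, SE 0.085), Wipf1, which holds WASP proteins (0.33, SE 0.068), and huntingtin (Htt, 0.27, SE 0.070). The calls of Diaph3 and Wasf1 held with each mouse left out. Those of the other 5 were lost in some cases: Wasf3 kept it only without no Cre mouse 6, Wasf2 only without Tie2-Cre mouse 4, Fhod1 only without mouse 1 or mouse 7, Wipf1 only without mouse 1, 4 or 7, and Htt in none (adjusted p up to 0.0774, 0.109, 0.0887, 0.0698 and 0.134). The formins Daam1 (0.05, SE 0.067) and Diaph2 (-0.04, SE 0.071) and the nucleation promoter Wasl (0.09, SE 0.068) did not pass.

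Among kinases and phosphatases that act on profilin or Ena/VASP proteins, or lie upstream of them, 1 of 15 was higher, 1 lower and 13 not past, with a median change of -0.07. The share past the threshold was 13.3%, near the 12.0% of all genes. Protein kinase D1 (Prkd1), which phosphorylates Vasp, was higher, with log2 intensities of 8.52, 8.71 and 8.32 in the Tie2-Cre mice and 7.56, 7.53 and 7.54 in the no Cre mice. Its change was 0.98 (SE 0.099, limma adjusted p 0.0008). The phosphatase Ptpn11 was lower by 0.27 (SE 0.063), a call lost with any 1 mouse left out (adjusted p 0.0656 to 0.107). Not past were the brightest others, Ppp1ca (-0.12, SE 0.13), the energy sensor subunit Prkaa1 (-0.20, SE 0.065, and past the threshold with another variance model, limma adjusted p 0.0163) and the protein kinase A subunit Prkaca (-0.07, SE 0.074). Src, a kinase of the VEGF receptor pathway, had a log2 difference of 0.13 (SE 0.064, adjusted p 0.257), and the VEGF receptor gene Kdr, at 6.26 and 6.19 log2, had one of 0.07 (SE 0.084, adjusted p 0.690) and of -0.0040 without Tie2-Cre mouse 4. These 2 genes were named after their values were seen.

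Actin itself and the proteins of monomers and filament ends followed. Of 16 measured, 3 were higher, 0 lower and 13 not past (limma), with a median change of 0.06. The higher genes were 18.8% of the list, beside 4.78% of all genes. Of those with a negative change, 1 had an unadjusted p under 0.05. Beta-actin (Actb) rose by 0.25 (SE 0.064), the monomer-binding thymosin Tmsb4x by 0.33 (SE 0.083) and the actin-severing destrin (Dstn) by 0.24 (SE 0.062). The calls of Actb and Dstn were lost with any 1 mouse left out (adjusted p 0.0706 to 0.127 and 0.0902 to 0.145), and Tmsb4x kept its call only without Tie2-Cre mouse 1 (up to 0.125). The capping protein subunits, whose action Ena/VASP proteins oppose, had log2 differences of -0.05 (Capza1, SE 0.062), -0.02 (Capza2, SE 0.073) and 0.01 (Capzb, SE 0.064) and did not pass. They were named after their values were seen, and Capza1 passed as lower when its probe sets were averaged (-0.36, limma adjusted p 0.0148). The brightest of those not past were the cyclase-associated protein Cap1 (0.24, SE 0.064, limma adjusted p 0.0529), gamma-actin (Actg1, 0.22, SE 0.081) and the muscle cofilin Cfl2 (0.04, SE 0.071). Cap1 passed with a minimum mean level, with either further normalization and with another variance model (adjusted p 0.0391, 0.0229, 0.0482 and 0.0017), and Actg1 with that variance model (0.0217). Over all 14 alternatives the change of Actg1 ran from 0.09 to 0.27, with limma adjusted p up to 0.575.

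Genes of filopodia and the leading edge included Fscn1, the largest rise of the partner lists. Of 9 measured, 4 were higher, 1 lower and 4 not past (55.6% past, beside 12.0% of all genes), and the median change was 0.01. Fascin (Fscn1), which bundles filopodial actin, rose by 1.11 (SE 0.087, limma adjusted p 0.0002). Its log2 intensity was 11.02, 10.95 and 11.22 with Tie2-Cre and 10.01, 9.96 and 9.88 without Cre. Myosin-X (Myo10), the motor that travels to filopodial tips, rose by 0.80 (SE 0.064, adjusted p 0.0003), from 11.30, 11.26 and 11.28 without Cre to 12.03, 12.09 and 12.12 with Tie2-Cre. In both genes the values within a group lay far closer together than the groups did. Dpysl3 rose by 0.64 (SE 0.087), and these 3 calls held with each mouse left out. Baiap2 (IRSp53), a membrane-bending partner of Ena/VASP proteins, rose by 0.38 (SE 0.089), and its relative Baiap2l1 was lower by 0.43 (SE 0.11). Baiap2 kept its call only without Tie2-Cre mouse 4 and Baiap2l1 only without Tie2-Cre mouse 3 (adjusted p up to 0.105 and 0.133). The GTPases Cdc42 (0.0014, SE 0.063) and Rac1 (-0.02, SE 0.063) and the WAVE complex subunit Nckap1 (-0.01, SE 0.063) did not pass. The neuron marker Tubb3, which is not confined to neurons, was higher on the same arrays (10.07, 10.10 and 9.94 against 8.95, 9.04 and 8.95), and the other 5 neuron markers did not pass. Their differences were 0.82 for Map2, 0.19 for Syt1, 0.06 for Snap25, -0.03 for Rbfox3 and -0.18 for Stmn2 (limma adjusted p 0.335, 0.356, 0.704, 0.893 and 0.189). The part of these markers in the changes of the filopodial genes was not tested.

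**Figure D4:**
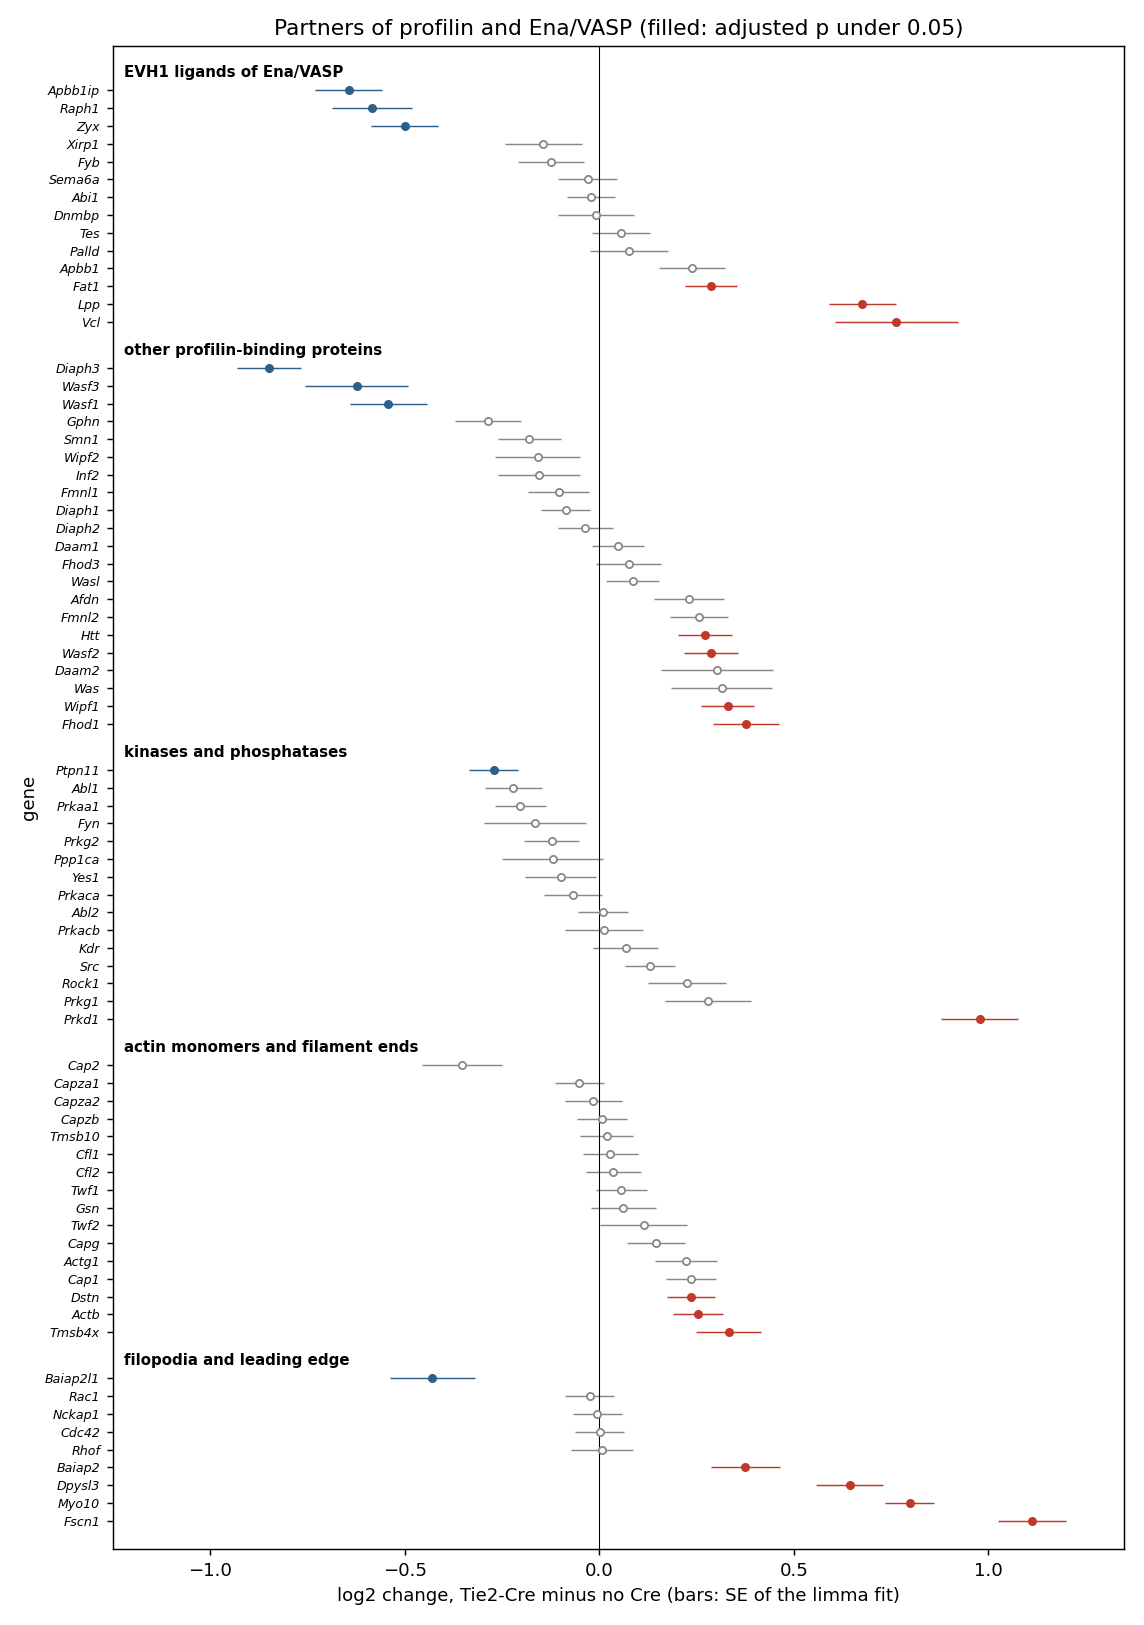
Log2 change, Tie2-Cre minus no Cre (horizontal axis), of the partner genes (vertical axis) by list, with the SE of the limma fit as bars; filled red and blue points passed the adjusted p threshold of 0.05 as higher and lower, open points did not. The EVH1 ligands divide into 3 lower and 3 higher genes, and Fscn1 at 1.11 is the largest rise plotted.

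Within the Tie2-Cre group, mouse 4 differed from mice 1 and 3 in several of these genes. It had the highest Enah (9.18) and the lowest Evl (9.23) of the 3, and it was highest in Vcl and Lpp and lowest in Raph1 and Apbb1ip. Its summed pericyte and smooth muscle intensity was the highest of the 3. It was highest in Acta2, Tagln, Myh11, Cnn1 and Cspg4 but not in Rgs5 or Des, and it was lowest in Pdgfrb (12.02 against 12.11 and 12.06). Its summed neuron marker intensity (2355) was also the highest, with Map2 at 9.52 against 7.55 and 7.58. Stmn2 was highest in mouse 4 as well, Rbfox3 lay between, and Tubb3, Syt1 and Snap25 were lowest. Without mouse 4, the changes of Enah (-0.70) and Evl (0.44) were larger and those of Vasp (0.27) and Pfn2 (0.11) smaller.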

How the data were processed

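RNA of 6 mice was measured on Affymetrix Mouse Gene 2.0 ST arrays. The deposited intensities are RMA values on a linear scale, which the authors took from Affymetrix Expression Console, per the labels' descriptions. Their log2 was taken here with no further scaling. No detection call came with them, and no genome build is given in the sources used here.

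Of 41345 probe sets, 23521 carried exactly 1 symbol in the array annotation. The brightest per symbol was kept, which left 22180 genes. Groups were compared by limma 3.58.1 in R 4.3.3 (lmFit, eBayes, two-sided), with Benjamini-Hochberg adjustment over all genes and a threshold of 0.05. The number of arrays limits the precision. In simulated data on 22180 genes, 50 genes were changed at each true size. Recovery was 10 of 50 genes for a true change of 0.4 log2, 34 of 50 for 0.6 and 46 of 50 for 1. False calls numbered 6. Far fewer genes were changed there than the 12.0% that passed the threshold in the data, which makes the adjustment stricter. The simulation therefore does not give the recovery in the real data. Nothing says that the mice were independent of litter or batch beyond their numbers. The limma p-values set a change against a variance drawn from the gene's spread between these mice and from that of all genes.

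Members, gene lists and motifs were chosen with earlier results of these data known. The text names all members, every partner gene past the threshold, the 3 brightest others of each partner list and the 3 nearest genes per member. Pseudogenes and Gm, Rik, Mir and Snor symbols were left out among the last. Listed genes without a single-symbol probe set were not analysed here.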

Additional observations from a re-analysis of the deposited data

How the results depend on the processing

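Besides the 6 fits that leave out 1 mouse each, 8 other settings were run for each gene. The calls of Enah and Evl held in all 8, and Pfn1 and Pfn2 stayed short of the threshold in all 14, with positive changes. The change of Vasp (0.29) lost its call in 1 of the 8, with all probe sets of the table, where more features are tested. With a mouse left out, changes ran from 0.25 to 0.33 for Vasp, from -0.70 to -0.49 for Enah and from 0.36 to 0.44 for Evl. The counts over all genes then ran from 634 to 903 higher (1061 with all mice) and from 910 to 1253 lower (1591). Over the same fits, 1 to 2 EVH1 ligands, 0 to 2 other profilin-binding genes and 0 to 1 genes of actin monomers and filament ends were higher, and 0 to 0 kinases and phosphatases, 0 to 1 genes of actin monomers and filament ends and 0 to 1 filopodial genes were lower. With all probe sets, these counts were 1, 1 and 0 higher and 0 kinases and phosphatases and 0 filopodial genes lower. For actin monomers and filament ends, eBayes with trend and robust gave 5 higher and 1 lower, and the mean of probe sets 1 lower; eBayes with trend and robust gave 2 kinases and phosphatases lower.

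Signs turned only for genes not past the threshold. Quantile normalization again gave 0.016 for Rac1, 0.0053 for Nckap1, 0.016 for Capza2, 0.00099 for Abi1 and 0.0066 for Dnmbp. The mean of probe sets gave -0.21 for Cdc42. With a mouse left out, values ran from -0.012 to 0.021 for Cdc42, from -0.028 to 0.0084 for Nckap1, from -0.011 to 0.066 for Cfl2, from -0.22 to 0.0017 for Ppp1ca, from -0.021 to 0.16 for Palld, from -0.061 to 0.097 for Dnmbp, from -0.073 to 0.0097 for Diaph2, from -0.030 to 0.13 for Pfn3, from -0.0040 to 0.11 for Kdr, from -0.062 to 0.033 for Capza2 and from -0.022 to 0.025 for Capzb. The changes of the 4 differences between family members were compared with those given above. In the scalings run and with each mouse left out, each differed by less than the SD pooled over both groups. No setting moved the median of all genes by 0.1 log2. No paired analysis was possible because the groups share no mouse numbers. No detection call came with the arrays, so the signal over background of dim genes such as Pfn3, Pfn4 and Ptprc is unknown.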
